A study of Homo sapiens with 12 samples.

Results

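Replication-dependent histone genes encode the core histones H2A, H2B, H3 and H4 and the linker histone H1 that package newly copied DNA. They were examined in PC9, a human lung adenocarcinoma cell line that depends on the EGFR kinase, before and during treatment with the EGFR inhibitor erlotinib and after loss of TDP1, the enzyme that removes trapped topoisomerase I from DNA ends. Members were the protein-coding rows of the count table whose symbol is H1-1 to H1-6 or starts with H2AC, H2BC, H3C or H4C and a digit, and whose expected read counts summed to at least 10 over the 12 libraries. Of 62754 gene rows, 83 carried such a symbol, 70 of these were protein coding, and 50 reached the minimum. The 50 comprised 4 H1, 12 H2A, 13 H2B, 10 H3 and 11 H4 genes. In RefSeq's GRCh38.p14 annotation, 39 lay on chromosome 6, 10 on chromosome 1 and 1 on chromosome 12. Of the 20 left out, 14 had a count of 0 in every library. H2AC21 (5 counts), H4C1 (6) and H2AC15 (9) fell just short of the minimum, and H2AC12 (10), H3C12 (11), H2BC10 (11) and H2AC16 (12) just reached it.

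Poly(A)-selected RNA was sequenced from 4 groups of 3 cultures, all from a subclonal PC9 line and all given as batch 1. Wild-type (TDP1 WT) cells were left untreated or kept in erlotinib at 1 µM. They were taken after 7 days, as drug-tolerant cells (DTC), or after 28 days, as drug-tolerant expanded cells (DTEC). The knockout line KO2 (TDP1 KO) was left untreated. The cultures of a group were separate flasks split from a shared starting flask, so p-values measure the spread between such cultures, and the knockout is represented by 1 line. PC9 carries an activating EGFR mutation in all groups. Libraries held 25572691 to 38373679 counts. TDP1 itself stood at 25.1 to 28.1 CPM (counts scaled to the same effective library total) in untreated wild type and at 10.1 to 11.3 CPM in KO2, a log2 fold change of -1.29 (adjusted p = 1.30e-05, edgeR), so residual transcript was present in the knockout libraries. It was at 12.6 to 15.7 CPM in DTC and 25.4 to 28.4 CPM in DTEC. The mitochondrial share of counts was 4.43 to 5.41% in the DTC libraries and 1.82 to 2.78% in all others. Epithelial keratin and adhesion markers were high in every group, with summed levels of 6288 to 7270 CPM in DTC and 9272 to 12309 CPM over the libraries of the other 3 groups. The lung lineage markers NKX2-1 and NAPSA were at most 1.96 CPM in any library, and SFTPB was at 11.6 to 17.1 CPM in DTEC and at most 7.25 CPM elsewhere. Of 5 markers of other cell types, PTPRC, COL1A2 and DCN were at or near 0 in every library, while COL1A1 was at 7.79 to 14.8 CPM outside DTC and 54.2 to 56.7 CPM in DTC, and PECAM1 at 7.62 to 9.76 CPM in DTC and at up to 95.0 CPM elsewhere; the part of these in the results was not tested.

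Replication-dependent histone mRNAs are unusual. Their genes lack introns, they are made mainly while DNA is copied, and most of the transcripts end not in a poly(A) tail but just after a conserved stem-loop, which the stem-loop binding protein SLBP recognises and the U7 small nuclear ribonucleoprotein helps to cut. Some of these genes also make longer, polyadenylated transcripts. Poly(A) selection captures tailless transcripts poorly, so the values here describe the captured part of the histone RNA and not its total. The 16-base stem-loop, searched as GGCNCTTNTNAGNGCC on the sense strand of GENCODE 29 transcripts, was found in a model of 26 members of the 47 that matched this annotation by identifier. It was found in 40 of 19684 protein-coding genes (0.203%). In the other 21 these letters were in no model, which says nothing of RNA beyond the model: that of H2BC12 is 381 bases long and that of H1-2 is 642. The stem-loops of the 7 members that passed the test after 28 days of erlotinib, reported further on, are shown with 5 bases on either side and the stem-loop in capitals.
H2AC6: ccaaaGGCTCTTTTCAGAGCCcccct
H2AC25: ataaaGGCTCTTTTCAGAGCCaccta
H2BC5: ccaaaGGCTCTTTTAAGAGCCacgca
H2BC21: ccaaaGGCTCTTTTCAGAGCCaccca
H3C6: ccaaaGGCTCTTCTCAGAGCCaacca
H4C8: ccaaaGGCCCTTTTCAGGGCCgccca
H4C14: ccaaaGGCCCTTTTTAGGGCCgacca

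In RefSeq's GRCh38.p14 annotation these genes lie at chr6:26124172-26124690 (H2AC6), chr6:26158121-26171349 (H2BC5), chr6:26224178-26227473 (H3C6), chr6:26285126-26285534 (H4C8), chr1:149832657-149833052 (H4C14), chr1:149884459-149886682 (H2BC21) and chr1:228457364-228457873 (H2AC25). The 26 members shared 6 distinct stem-loops. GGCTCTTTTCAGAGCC was the most frequent and occurred in 12 members, among them H2AC6, H2AC25 and H2BC21. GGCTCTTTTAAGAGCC occurred in 4 H2B or H3 genes, and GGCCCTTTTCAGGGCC (5 members) and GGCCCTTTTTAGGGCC (3 members) occurred in H4 genes. The H3C6 stem-loop, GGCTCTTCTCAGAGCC, was found in no other member. Many models ran on past the stem-loop. In 23 members a GENCODE 29 model either extended at least 100 bases beyond it or lacked it and ended with AATAAA or ATTAAA in the last 60 bases, as in H2AC6, H2BC21 and H4C8. The remaining 24, including H1-2 and H2BC12, had no such extended model.

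Upstream sequences are shown for 4 members that differ in family and in their course over time: H2AC6, H2BC5 and H4C8, which stayed above untreated cells at 28 days, and H1-2, which did not pass the test then. Each is the RefSeq window of 300 bases, 250 before and 50 after the annotated start, in GRCh38.p14. Capitals mark matches on either strand to 3 promoter elements of these genes. CCAAT is the core of the element of that name. TATAAA is the sequence that positions the start site. ATTTGCAT is the octamer bound by OCT factors.
H2AC6, chr6:26123922-26124221, plus strand: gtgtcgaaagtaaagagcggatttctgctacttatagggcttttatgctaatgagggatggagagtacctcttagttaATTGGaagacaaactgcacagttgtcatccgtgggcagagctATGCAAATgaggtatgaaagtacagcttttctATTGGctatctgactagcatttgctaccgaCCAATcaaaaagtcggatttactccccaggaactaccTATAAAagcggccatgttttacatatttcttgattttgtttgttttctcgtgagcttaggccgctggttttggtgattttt
H2BC5, chr6:26157871-26158170, plus strand: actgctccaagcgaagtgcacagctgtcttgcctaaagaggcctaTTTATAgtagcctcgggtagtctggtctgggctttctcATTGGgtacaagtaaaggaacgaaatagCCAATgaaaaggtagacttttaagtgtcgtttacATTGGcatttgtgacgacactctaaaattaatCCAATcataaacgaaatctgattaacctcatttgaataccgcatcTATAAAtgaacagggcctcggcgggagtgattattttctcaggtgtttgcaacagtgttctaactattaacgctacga
H4C8, chr6:26285485-26285784, minus strand: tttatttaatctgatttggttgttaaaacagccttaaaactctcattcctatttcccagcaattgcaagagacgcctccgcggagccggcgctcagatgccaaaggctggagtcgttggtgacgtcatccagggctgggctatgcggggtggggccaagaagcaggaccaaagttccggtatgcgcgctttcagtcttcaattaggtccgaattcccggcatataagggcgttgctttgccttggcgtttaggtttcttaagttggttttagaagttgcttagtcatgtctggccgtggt
H1-2, chr6:26056421-26056720, minus strand: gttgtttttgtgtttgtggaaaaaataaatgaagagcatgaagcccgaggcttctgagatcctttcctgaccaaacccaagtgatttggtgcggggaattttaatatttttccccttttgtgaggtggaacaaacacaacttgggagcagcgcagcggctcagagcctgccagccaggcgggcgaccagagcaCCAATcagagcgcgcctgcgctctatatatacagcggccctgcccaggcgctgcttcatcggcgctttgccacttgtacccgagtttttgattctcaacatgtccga

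RefSeq windows were found for 47 members. CCAAT was present in 38 of the 47, against 34.6% of all 35116 promoter windows, and all 4 H1, 11 H2A, 13 H2B and 9 H3 windows held it, but only 1 of 10 H4 windows. TATAAA was present in 29 of 47, against 11.5% of all windows. The octamer was present in 19 of 47, against 1.77% of all windows: 10 of 13 H2B genes, 8 of 11 H2A genes and 1 of 9 H3 genes, which is H3C4, whose window in the table is that of H2AC7. TTTCCCGC, an E2F-type motif, was in none of the 47 windows and in 1.63% of all windows. A match describes letters, not factor binding. H4C8 and H4C14, which rose with the others at 7 days, held none of the 4 motifs. Several H2A and H2B genes stand head to head and their windows overlap: that of H2AC6 shares 255 bases with that of H2BC4 on the opposite strand.

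After 7 days of erlotinib, histone transcripts rose in every family. The sum over the 50 members was 27.4, 31.0 and 31.7 CPM in the 3 untreated wild-type libraries (30.0 ± 2.30, SD, n = 3) and 232, 344 and 326 CPM in the 3 DTC libraries (301 ± 59.9, SD, n = 3), a ratio of 10.0 between group means. The groups did not overlap, and DTC replicate 1 was the lowest of the DTC libraries. By family, the ratio was 21.3 for H2A, 19.1 for H4, 13.8 for H1, 8.91 for H3 and 6.19 for H2B. H2BC12, H2AC6 and H1-2 together gave 68.7% of the summed CPM in untreated cells and 57.4% in DTC. These shares are of counts and not per length. The overall ratio depended on H2BC12, which gave the most counts in untreated cells: it was 16.8 without that gene, 13.6 without these 3 genes and 17.0 over the 33 members whose counts were all whole numbers. In bulk RNA, a change in the share of cells that express a gene and a change in RNA per cell cannot be told apart.

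**Figure D1:**
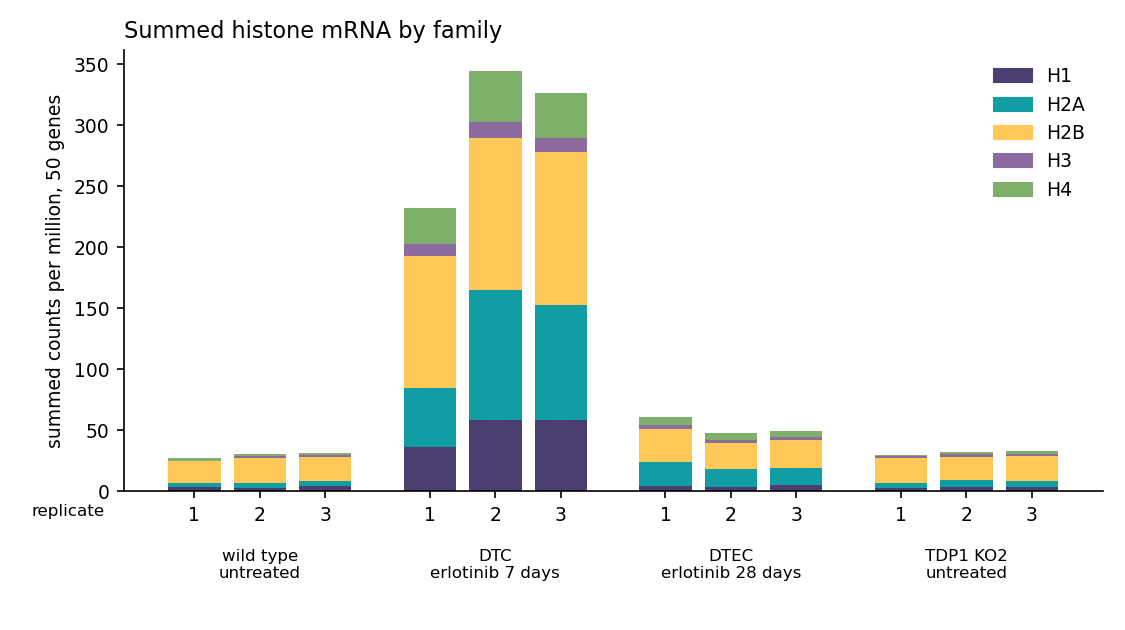
Summed level of the 50 histone genes in each library, in CPM (vertical axis from 0), stacked by histone family; each bar is 1 library, numbered by replicate. The DTC bars reach 232 to 344 CPM, the DTEC bars 48.2 to 61.0 CPM, and the untreated wild-type and KO2 bars 27.4 to 32.9 CPM.

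Of the 50 members, 25 passed the filter on low counts and were tested by edgeR's quasi-likelihood test with Benjamini-Hochberg adjustment over 17115 genes. In DTC, 24 of the 25 were called higher than in untreated wild type (adjusted p under 0.05) and 0 lower, where 34.0% of all tested genes were called higher and 33.3% lower. The exception was H2AC17, an H2A gene named after its values were seen, at a log2 fold change of 1.82 (adjusted p = 0.0795). The median log2 fold change of the 25 was 3.29, or 2.97 with H2BC7 set to its lower bound, beside 0.06 for all tested genes. Of the 25, 10 passed the filter only because of their DTC libraries, so a rise among them was built into the selection and their p-values at 7 days do not test it independently. They were H2AC8, H2AC11, H2AC17, H2BC6, H2BC7, H2BC8, H2BC18, H3C8, H4C5 and H4C16. The other 15 also passed it without the DTC libraries, and 15 of these 15 were called higher, against 31.1% of the 15897 genes that did so. With all 50 members fitted and no filter, 27 were called higher and 1 lower, where 29.1% of 22860 genes were higher and 24.5% lower, and the median was 2.00. DTC libraries that all lay above the 3 untreated ones were seen in 23 of the 25 and in 35.1% of tested genes. The 25 include the 10 that passed the filter only through the DTC libraries.

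H1-2, the linker histone gene with the most counts among the 50 members, stood at 3.08, 2.73 and 3.81 CPM in untreated wild type and at 36.3, 58.6 and 58.8 CPM in DTC. Every DTC library lay far above every untreated one, and replicate 1 was again the lowest. The log2 fold change was 3.99 (SE 0.21, adjusted p = 1.56e-09). It was the sole H1 member tested. H1-4, which did not pass the filter, went the other way, with 0.597, 0.236 and 0.519 CPM in untreated cells and 0.203, 0 and 0.0294 CPM in DTC, and it was the 1 member called lower when no filter was applied (log2 fold change -2.54, adjusted p = 0.0351).

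Among H2A genes, H2AC6 had 1.49, 1.45 and 1.36 CPM in untreated wild type and 37.8, 70.5 and 60.5 CPM in DTC. The untreated libraries were nearly equal and the DTC libraries all far higher. Its log2 fold change was 5.29 (SE 0.25, adjusted p = 7.97e-10). H2AC18 had 0.299, 0.978 and 0.771 CPM in untreated cells and 7.33, 25.9 and 22.4 CPM in DTC, where replicate 1 stood well below the other two. Its log2 fold change was 4.77 (SE 0.49, adjusted p = 1.99e-06). H2AC18 has a near-identical neighbour, H2AC19, to which the counting gave 0 reads in every library. The counts of H2AC18 were partly fractional, and the gene that took the remainder of those reads was not identified. H2AC25, an H2A gene on the long arm of chromosome 1 outside the main clusters, had 0.866, 1.01 and 1.18 CPM in untreated cells and 1.69, 5.41 and 4.92 CPM in DTC. Replicate 1 of DTC barely exceeded the highest untreated library. Its log2 fold change of 1.97 (SE 0.37, adjusted p = 2.66e-04) was among the smaller ones.

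Of the 13 H2B members, 10 were tested and 10 were called higher, beside 34.0% of all tested genes; 4 of the 10 had passed the filter only through the DTC libraries, and 6 had not. H2BC12 had 14.7, 17.3 and 16.1 CPM in untreated wild type and 53.8, 68.5 and 73.6 CPM in DTC, with no overlap. Its log2 fold change of 2.03 (SE 0.13, adjusted p = 7.36e-09) was small beside those of H2BC5, H2BC4 and H2BC21. H2BC5 had 0.985, 0.843 and 1.15 CPM in untreated cells and 28.7, 28.8 and 28.4 CPM in DTC. Its DTC libraries were nearly equal, without the low replicate 1 seen for the H2A genes, and its log2 fold change was 4.84 (SE 0.16, adjusted p = 3.16e-11). H2BC4 had 0.269, 0.303 and 0.375 CPM in untreated cells and 7.06, 7.97 and 7.94 CPM in DTC, a log2 fold change of 4.58 (SE 0.23, adjusted p = 9.89e-10). H2BC21 had 0.269, 0.472 and 0.519 CPM in untreated cells and 11.1, 10.2 and 8.46 CPM in DTC, a log2 fold change of 4.55 (SE 0.33, adjusted p = 2.57e-08). For both genes the groups were far apart. H2BC11 had 0.548 to 0.877 CPM in untreated cells and 2.43 to 3.00 CPM in DTC (log2 fold change 1.99, adjusted p = 4.70e-05). H2BC7 had a count of 0 in the 3 untreated libraries and 0.338, 0.323 and 0.322 CPM in DTC, at least 3.55-fold higher when each untreated library is set to the 3 counts that a count of 0 allows, a limit that covers counting error only (adjusted p = 0.00282). It had passed the filter only through the DTC libraries, so its rise was built into the selection.

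For H3, H3C6 had 0.239, 0.435 and 0.663 CPM in untreated wild type and 7.94, 9.22 and 8.29 CPM in DTC. The groups did not overlap and the log2 fold change was 4.23 (SE 0.31, adjusted p = 2.64e-08). The other tested H3 genes, H3C10 and H3C8, rose by less (log2 fold changes 2.41 and 2.26, adjusted p = 4.49e-04 and 0.0199). The call for H3C8, whose mean in DTC was 0.460 CPM, was lost without untreated replicate 1 or 3 or DTC replicate 3 (adjusted p = 0.0794, 0.0750 and 0.0678), and its log2 fold change was 3.31 without untreated replicate 2. H3C8 had passed the filter only through the DTC libraries, so its rise was built into the selection.

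For H4, H4C8 had 0.418, 0.371 and 0.144 CPM in untreated wild type and 14.9, 17.8 and 15.4 CPM in DTC, again with a wide gap. Its log2 fold change of 5.68 (SE 0.28, adjusted p = 6.45e-10) was the highest among the tested members apart from H2BC7. H4C14 had 0.893, 0.124 and 0.889 CPM in untreated cells and 13.2, 15.7 and 14.2 CPM in DTC (log2 fold change 4.45, SE 0.44, adjusted p = 1.09e-06). H4C15, its near-identical copy on chromosome 1, had 0.182, 0.685 and 0.206 CPM in untreated cells and 0.300, 5.18 and 4.68 CPM in DTC, where replicate 1 lay within the untreated range. Its log2 fold change was 3.29 (SE 0.99, adjusted p = 0.0108), or 4.15 without untreated replicate 2. None of the 12 counts of either gene was a whole number, so their reads were shared out by the counting and the division between them is uncertain. With the 2 genes summed, 23 of 24 tested members were called higher, where 6088 of 17114 genes were.

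**Figure D2:**
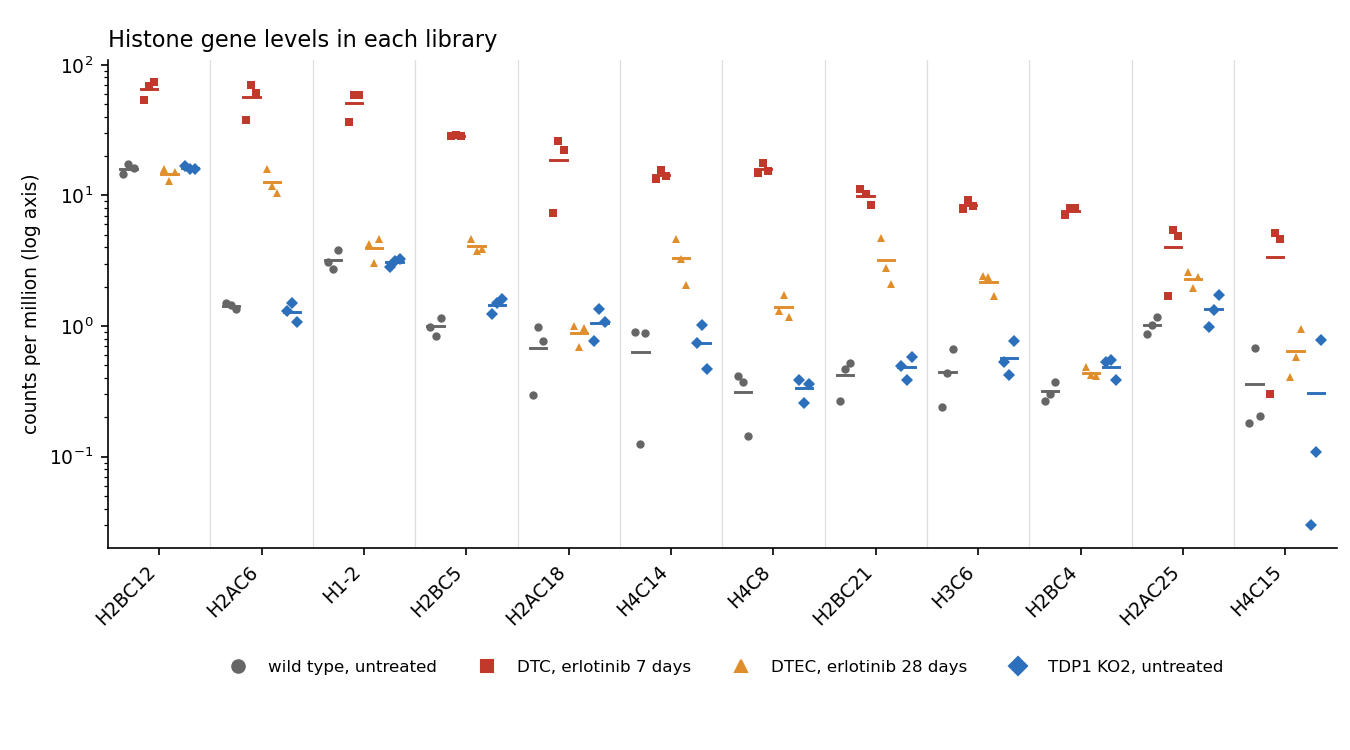
Levels of the 12 histone genes with the highest mean, in CPM on a log axis; each symbol is 1 library and each short line the mean of 3, with groups marked by colour and shape. The DTC libraries lie above the untreated ones for 11 of the 12 genes; for H4C15, DTC replicate 1 (0.300 CPM) lies among them.

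The other 25 members were not tested. Their highest group mean was 0.549 CPM and their highest library 1.08 CPM, so a change in them was mostly not detectable at this depth. Without the filter, H2AC13, H2AC7 and H3C4 were also called higher in DTC (adjusted p = 0.00291, 0.00704 and 0.0276). H2AC20, the head-to-head neighbour of H2BC21, had 0.178 ± 0.102 CPM in untreated cells and 0.0693 ± 0.0748 CPM in DTC (SD, n = 3 each), while H2BC21 rose. Counts of H2AC20 and H2BC21 were partly fractional, and whether H2AC20 shared reads with H2AC18 was not tested. H2AC7, H2AC13, H2AC20 and H3C4 were named after their values were seen.

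After 28 days, the summed level of the histone genes lay between those of untreated and DTC cells, and single members differed in how far they had fallen. The sum over the 50 members in DTEC was 61.0, 48.2 and 49.2 CPM (52.8 ± 7.16, SD, n = 3), 1.76 times untreated wild type (2.72 times without H2BC12) and 0.175 of DTC. Every DTEC library lay above every untreated and below every DTC library. Against untreated cells, 7 of the 25 tested members were called higher and 0 lower, where 26.0% of tested genes were called higher and 26.3% lower. Over all 25 members the share was thus close to the background. The 10 members that had passed the filter only through the DTC libraries held 0 of the calls, and the other 15 held 7. It was not examined whether any of these 15 passed only through the DTEC libraries. No 28-day share was taken over all genes that pass without the DTC libraries, so 7 of 15 has no matching background. With a mean of at least 1 CPM required, 7 of 13 members were called higher, where 4110 of 13740 genes were. The median log2 fold change of the 25 was 0.32, beside 0.02 for all tested genes, and lay between 0.013 and 1.23 with other filters. The 7 were H2AC6, H2AC25, H2BC5, H2BC21, H3C6, H4C8 and H4C14, and the DTC and DTEC comparisons share their untreated libraries.

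H2AC6 was at 15.8, 11.8 and 10.4 CPM in DTEC, well above the 3 untreated libraries, with a log2 fold change of 3.14 (SE 0.25, adjusted p = 2.50e-07). H2BC21 was at 4.75, 2.78 and 2.09 CPM (log2 fold change 2.92, SE 0.33, adjusted p = 5.98e-06). H4C14 was at 4.62, 3.24 and 2.08 CPM (2.33, SE 0.44, adjusted p = 6.45e-04). For all 3 genes, replicate 1 was the highest DTEC library and none reached the untreated range. H3C6 was at 2.43, 2.37 and 1.71 CPM (2.26, SE 0.31, adjusted p = 3.46e-05). H4C8 was at 1.31, 1.72 and 1.18 CPM (2.16, SE 0.30, adjusted p = 3.36e-05). H2BC5 was at 4.63, 3.74 and 3.90 CPM (2.03, SE 0.16, adjusted p = 2.12e-07). These 3 genes also stood clear of the untreated libraries. H2AC25 was at 2.59, 1.95 and 2.39 CPM (1.18, SE 0.37, adjusted p = 0.0157), and its call was lost without untreated replicate 1 (adjusted p = 0.0523).

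Other members that had risen strongly at 7 days did not pass the test at 28 days. H1-2 had 4.23, 3.05 and 4.67 CPM in DTEC, which overlapped its untreated libraries, with a log2 fold change of 0.32 (SE 0.21, adjusted p = 0.225). H2BC12 had 15.8, 12.9 and 15.1 CPM, also overlapping its untreated libraries (-0.13, SE 0.13, adjusted p = 0.409). H2AC18 had 1.00, 0.687 and 0.960 CPM (0.39, SE 0.55, adjusted p = 0.568). H2BC4 had 0.487, 0.420 and 0.412 CPM, just above the highest untreated library at 0.375 CPM (0.47, SE 0.27, adjusted p = 0.233). A p above the threshold does not show that these levels equalled those of untreated cells. H4C15 had 0.405, 0.582 and 0.942 CPM and its groups overlapped (0.89, SE 1.05, adjusted p = 0.502).

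**Figure D3:**
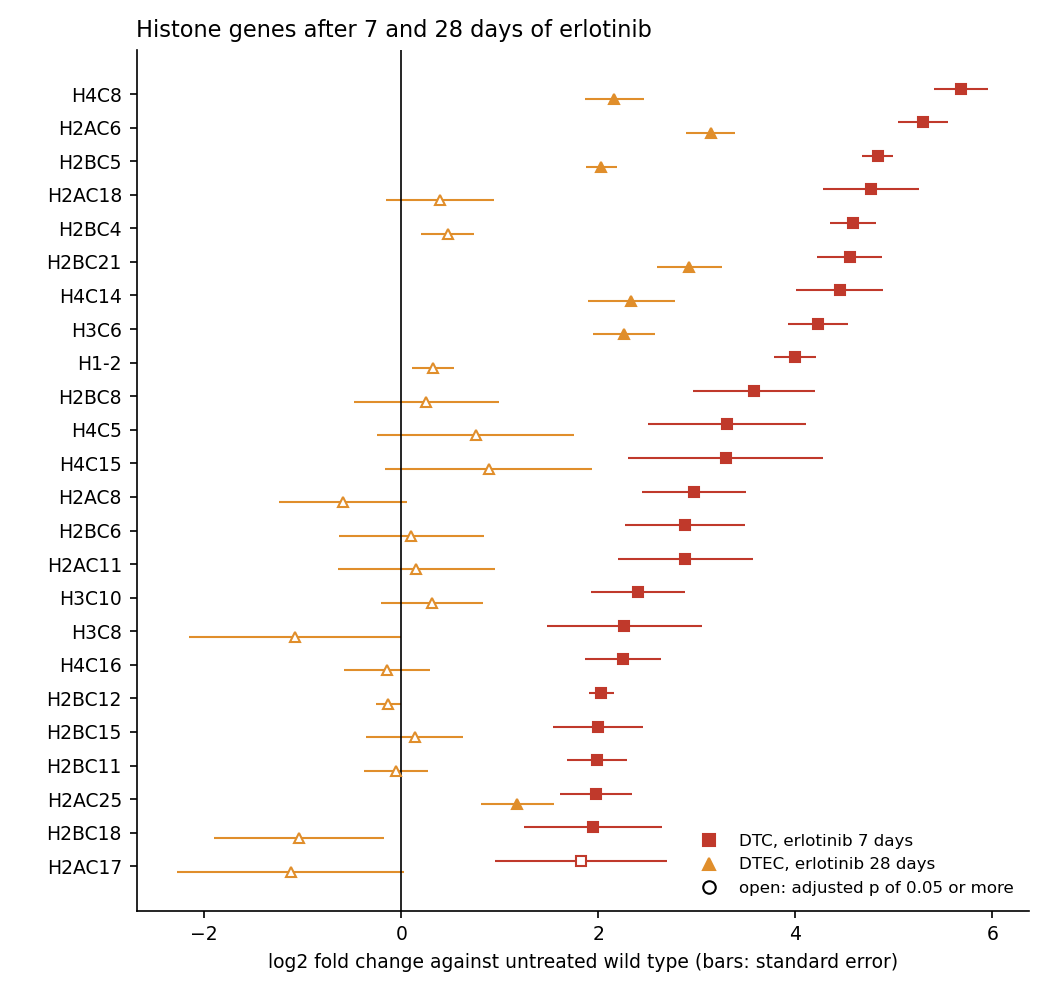
Log2 fold change against untreated wild type for 24 tested histone genes (H2BC7, at a count of 0 in untreated cells, is not drawn), after 7 days (squares) and 28 days (triangles) of erlotinib; bars are standard errors and open symbols did not pass the adjusted p of 0.05. At 7 days values run from 1.82 (H2AC17) to 5.68 (H4C8), at 28 days from -1.12 (H2AC17) to 3.14 (H2AC6).

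The direct comparison of the 2 treated groups asks how the levels differed between 28 and 7 days. In DTEC, 24 of the 25 tested members were called lower than in DTC and 0 higher, where 26.6% of tested genes were called lower and 28.8% higher. Of the 25, 10 had passed the filter only through the DTC libraries, so a fall among them was built into the selection. Of the other 15, 14 were called lower, against 24.5% of the 15897 genes that passed without those libraries. The median log2 fold change was -2.73, beside -0.01 for all tested genes. H2AC25 was the exception, at -0.80 (SE 0.34, adjusted p = 0.0634), and its DTEC libraries lay within the DTC range. It was called lower when DTC replicate 1 was left out (log2 fold change -1.17, adjusted p = 5.64e-04). Apart from H2BC7, which had a count of 0 in 2 of the 3 DTEC libraries, the fall was deepest for H2AC18 (log2 fold change -4.37), H2BC4 (-4.11) and H1-2 (-3.67), whose mean levels in DTEC were 4.76, 5.74 and 7.78% of those in DTC. H2BC21 kept 32.3%, H3C6 25.6%, H4C14 23.0% and H2AC6 22.5% of their DTC means. H2BC12 kept 22.3%, but its untreated libraries were already at 14.7 to 17.3 CPM. The call for H4C15 (-2.41, adjusted p = 0.0429) was lost in 6 of the 12 fits that each left out 1 library (adjusted p = 0.0546 to 0.146).

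The head-to-head pair H2AC6 and H2BC4 rose together at 7 days and then separated. The ratio of H2AC6 to H2BC4 counts was 4.65 ± 0.98 in untreated wild type and 7.28 ± 1.77 in DTC. It was 28.6 ± 3.65 in DTEC and 2.65 ± 0.17 in KO2 (SD, n = 3 each). Gene lengths cancel between groups only if each gene keeps the same mix of transcripts, which was not tested. The ranges of DTEC and each other group did not overlap. KO2 (2.47 to 2.79) also lay wholly below untreated wild type (3.62 to 5.56). With 3 cultures against 3, an exact permutation p cannot fall below 0.1. H2BC21 and H2AC20, H2AC25 and H2BC26, and H2BC11 and H2AC11 are further such pairs. In the first 2, H2AC20 and H2BC26 had no group mean above 0.252 CPM. H2AC11 and H2BC11 both rose at 7 days (log2 fold changes 2.88 and 1.99; H2AC11 2.24 without DTC replicate 3 and 3.81 without untreated replicate 3) and neither passed the test at 28 days. The rise of H2AC11 was built into the selection, as it had passed the filter only through the DTC libraries.

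The members were also divided by their transcript models. Of the 23 members with an extended model, 20 were tested, 20 were called higher at 7 days and 7 at 28 days, where 34.0% and 26.0% of all tested genes were. Of these 20, 8 had passed the filter only through the DTC libraries, and the other 12 held 12 of the calls at 7 days and 7 at 28 days. For these 12, no matching share of all genes at 28 days was taken. Of the 24 without, 4 were tested, 3 were called higher at 7 days (H1-2, H2AC8 and H2BC12) and 0 at 28 days, beside the same shares of all tested genes. Of these 4, H2AC8 and H2AC17 had passed the filter only through the DTC libraries, so a rise in them was built into the selection. Summed levels of the first set were 8.39 ± 0.83 CPM in untreated wild type and 161 ± 26.1 CPM in DTC, then 32.6 ± 6.25 CPM in DTEC, and 9.43 ± 1.16 CPM in KO2. Those of the second set were 20.8 ± 1.25, 121 ± 25.3, 19.2 ± 2.32 and 21.2 ± 0.08 CPM (SD, n = 3 each). Both sets were higher in DTC, and in DTEC the first set lay above its untreated libraries while the second did not. Most of the second sum came from H2BC12 and H1-2. H2BC12 had means of 16.0, 65.3 and 14.6 CPM in untreated wild type, DTC and DTEC, and H1-2 had 3.20, 51.2 and 3.98 CPM. The transcript model that placed H2BC12 in this set is 381 bases long, while RefSeq gives the gene as chr6:27138293-27146858. The sums of the second set thus mainly describe these genes, and their place in it depends on the annotation. The difference between the sets was not tested. The annotation release used for counting is not given in the sources used here.

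In untreated TDP1 knockout cells, no member passed the test. The sum was 30.2, 32.5 and 32.9 CPM (31.9 ± 1.47, SD, n = 3), which overlapped the untreated wild-type libraries, a ratio of 1.06. Of the 25 tested members 0 were called by edgeR in either direction, where 2.76% of tested genes were called higher and 1.55% lower. DESeq2 also called 0, and 4 members had an unadjusted p under 0.05 in edgeR. The share of all tested genes under that unadjusted threshold was not taken. Those 4 were H2BC15 (log2 fold change -1.86, adjusted p = 0.105), H2BC5 (0.53, adjusted p = 0.115), H4C16 (-1.12, adjusted p = 0.247) and H2BC7, with a count of 0 in wild type and in 2 of the 3 knockout libraries (adjusted p = 0.286). H2BC5 had 1.23, 1.49 and 1.60 CPM in KO2, each above the highest wild-type library at 1.15 CPM. H2BC15 had 0.0730 to 0.0971 CPM in KO2 and 0.169 to 0.418 CPM in wild type. Of the 25 tested members, 2 had all KO2 libraries above wild type and 2 had all below. Such separation was common: 15.8% of all tested genes lay above and 19.9% below.

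Genes that make, process and use histone mRNA moved differently from the histone genes. Of all tested genes, 33.3% were called lower and 34.0% higher at 7 days. At 28 days, 26.3% were called lower and 26.0% higher. These shares are the background for each list below. At 7 days the S-phase list, made up of replication and nucleotide synthesis genes, had 24 of 26 genes called lower and 1 higher, with a median log2 fold change of -1.24. UHRF1, which maintains DNA methylation at the replication fork, fell by 2.31 on the log2 scale, MCM7, a subunit of the replicative helicase, by 1.96 and POLA1, the catalytic subunit of the primase-polymerase, by 1.64. The 1 called higher was CCNE2, encoding cyclin E2 (0.80, adjusted p = 4.87e-05). At 28 days 26 of 26 were called lower, with a median of -0.91, led by RRM2, a ribonucleotide reductase subunit (-1.66), GINS2, part of the replicative helicase (-1.47), and TYMS, which makes thymidylate (-1.47). Histone genes thus rose at 7 days while most replication genes of the list fell. The mitochondrial share of counts and the number of genes with at least 1 count (23342 to 24224 in DTC, 20914 to 21460 in untreated wild type) also differed between these groups, and their part in these results was not tested.

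The processing list holds 14 factors for histone transcription and 3′ end formation. At 7 days 11 were called lower and 1 higher (median -0.89), where 33.3% and 34.0% of all tested genes were. At 28 days 9 were called lower and 2 higher (median -0.38), where 26.3% and 26.0% of all tested genes were. SLBP had 120, 101 and 102 CPM in untreated wild type, 62.2, 76.4 and 68.5 CPM in DTC and 68.3, 65.7 and 64.6 CPM in DTEC. Both treated groups lay below all untreated libraries (log2 fold changes -0.64 and -0.70, adjusted p = 5.94e-05 and 4.90e-05). SRRT, which links the cap to histone mRNA processing, fell by 1.47 at 7 days on the log2 scale, CSTF2, a cleavage factor, by 1.26 and ERI1, an exonuclease that trims histone mRNA ends, by 1.10. HINFP, an activator of H4 transcription, was the 1 called higher (0.38, adjusted p = 0.00994). NPAT, the coactivator of histone gene transcription, had 38.1, 38.4 and 40.9 CPM in untreated cells, 50.4, 29.1 and 31.9 CPM in DTC and 61.4, 52.6 and 48.4 CPM in DTEC. Its DTC replicate 1 lay above and the other two below the untreated libraries, with no call at 7 days (-0.08, adjusted p = 0.701). That value was 0.28 when scaled by total counts and -0.32, called lower, without DTC replicate 1 (adjusted p = 0.00988). At 28 days NPAT was called higher (0.47, adjusted p = 0.0282), a call lost in 5 of the 12 fits that each left out 1 library (adjusted p = 0.0515 to 0.106).

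Histone chaperones carry histones to DNA. Of 12 in the list, 11 were called lower and 0 higher at 7 days (median -0.76), led by HIRA, which deposits H3.3 (-1.52), and the CAF-1 subunits CHAF1B (-1.46) and CHAF1A (-1.19). At 28 days 6 were called lower and 1 higher (median -0.30). The histone variant list holds 10 genes, most of them replication-independent with polyadenylated mRNAs, and 9 were tested. At 7 days 6 were called lower and 1 higher (median -0.70), and at 28 days 5 were called lower and 1 higher (median -0.63). CENPA, the centromeric H3, fell by 1.74 on the log2 scale, and H2AX, the variant phosphorylated at DNA breaks, by 1.03 (adjusted p = 0.0137), a call lost with total counts or the upper quartile as the scale and without untreated replicate 2 or DTC replicate 1 (adjusted p = 0.0536 to 0.0814). H2AJ was the 1 variant called higher at 7 days (1.10, adjusted p = 9.02e-04). H2AZ1 fell by 0.67 at 7 days, which did not pass with total-count scaling (adjusted p = 0.0862), and H3-3B by 0.94, and H3-3A did not pass the test (0.13, adjusted p = 0.342) although it did, as higher, with total-count scaling (0.48, adjusted p = 0.00188).

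A list of 12 enzymes of polyadenylation and RNA decay had 9 called lower and 1 higher at 7 days (median -0.88) and 7 lower and 3 higher at 28 days (median -0.42). The 3 called higher at 28 days lay near the 26.0% of all tested genes called higher. PABPN1, the nuclear poly(A)-binding protein, fell by 1.60 on the log2 scale at 7 days, TENT4A, a poly(A) polymerase of nuclear RNA decay, by 1.48 and MTREX, a helicase of the nuclear exosome, by 1.37. TUT7, a uridylyltransferase, was the 1 called higher (0.57, adjusted p = 0.00291). Other RNAs that lack a poly(A) tail did not rise with the histone genes. Of 10 listed, 5 were tested, and at 7 days 3 were called lower (RN7SL1 -2.41, RN7SL2 -2.71, RMRP -2.34) and 0 higher, with summed levels of 11.9 to 16.1 CPM in untreated cells and 2.62 to 5.17 CPM in DTC. The choice of this last list came after the data were seen, and its bearing on the histone values was not tested. In KO2, 0 genes of these 6 lists were called, where 2.76% of tested genes were called higher and 1.55% lower. A count of 0 lies near those shares.

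**Figure D4:**
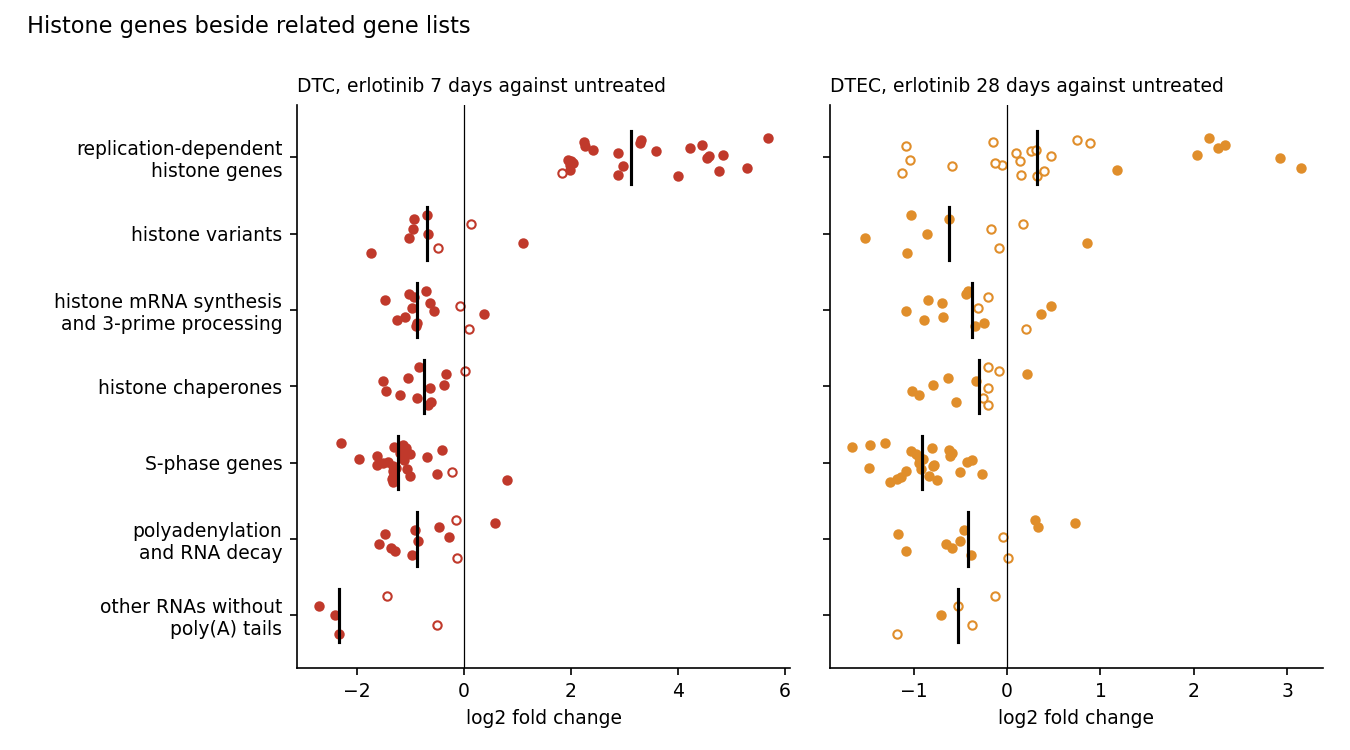
Log2 fold change against untreated wild type after 7 days (left) and 28 days (right; the horizontal scales differ) for the tested histone genes and 6 related lists; each point is a gene, filled if it passed the adjusted p of 0.05, and black lines are medians of the genes drawn (H2BC7 is left out). At 7 days the histone genes lie between 1.82 and 5.68 and the S-phase list has a median of -1.24.

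The median of each of the 6 related lists was below 0 at both times under the 4 scalings run. Counts moved: with total counts as the scale, the genes called lower at 7 days were 21 of the S-phase list, 10 of processing, 8 of chaperones, 4 of variants, 7 of polyadenylation and decay and 3 of the other RNAs without a tail. At 28 days they were 23, 5, 5, 5, 4 and 0 in the same order. Under this scaling, 3702 of all 17115 tested genes were called lower at 7 days and 3269 at 28 days. With total counts as the scale, without TMM factors, the median log2 fold change of all genes was 0.35 higher in DTC. Calls in the higher direction made up 68.4% of all calls in place of 50.5%. Among tested members 25 of 25 were called higher, where 8008 of 17115 genes were. In DTEC the median moved by 0.17, and the percentage of calls in the higher direction was 63.7 in place of 49.7. As before, 7 members were called higher, where 5748 of 17115 genes were. From 7 to 28 days the percentage was 37.4 in place of 51.9, and 25 members were called lower, where 5951 of 17115 genes were. In KO2 the percentage was 78.8 in place of 64.1. There 0 members were called, where 676 of 17115 genes were called higher and 182 lower.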

How the data were processed

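Gene-level expression was measured by RNA-seq of poly(A) RNA (TruSeq Stranded mRNA libraries, per the labels' protocols) in 12 PC9 libraries, 3 in each of 4 groups taken from the sample titles. The deposited table holds expected counts per gene, unnormalized. The submitters' processing notes name RSEM 1.3.1, Bowtie2 2.5.2, DESeq2 1.40.2 and GRCh38, with no role or order; the annotation release and the strand setting are not given in the sources used here. Of the 50 members, 17 had fractional counts, as RSEM gives for reads that fit several genes. Expected counts were rounded for the fit.

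All 12 libraries were fitted together with edgeR 4.0.16 (R 4.3.3): TMM scaling, filterByExpr by group, 1 mean per group, the robust quasi-likelihood test and Benjamini-Hochberg adjustment over 17115 genes, called at an adjusted p under 0.05. The script was tested on simulated data. CPM values used TMM-scaled totals. The same test with other scalings, filters and groups, DESeq2 1.42.0, and the fit without each library in turn served as alternatives. Replicate numbers were not used to pair the samples. The members and gene lists were chosen with earlier results of these data known. Named members had a mean of at least 1 CPM or were among the 4 largest called changes in a direction; per list, the 3 largest called changes were named, with TDP1, SLBP, NPAT, H2AX, H2AZ1, H3-3A and H3-3B. Members outside this rule were named after their values were seen. An item of the histone variant list is not reported here. Stem-loops were read from GENCODE 29 transcripts and promoters from RefSeq windows (GRCh38.p14).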

Additional observations from a re-analysis of the deposited data

Results flagged for a closer look

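Several genes responded differently at 28 days and at 7 days of erlotinib, by the edgeR test of DTEC against DTC. Among the histone genes, 24 tested members differed, where 26.6% of all tested genes were lower and 28.8% higher at 28 days than at 7; 10 of the 25 tested had passed the filter only through the DTC libraries. Cyclin E2 (CCNE2) differed by -1.548 on the log2 scale, higher than untreated at 7 days and lower at 28 days. The chaperone subunit RBBP4 differed by 0.5499 and the uridylyltransferase TUT4 by 0.7996, both lower at 7 days and higher at 28 days. With total counts as the scale, neither was called lower at 7 days (RBBP4 0.017, TUT4 -0.11). The 2 comparisons with untreated cells share their untreated libraries.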

How the results depend on the processing

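Direction and side of the threshold were kept by 2095 of 2158 gene values over all alternatives. Of 300 counts, medians and ratios, 259 stayed within 1.5 times (counts) or within the spread (other values). At 7 days, 24 of 25 tested histone genes were called higher, where 34.0% of all tested genes were. With a mean of at least 1 CPM required, 13 of 13 were, where 5042 of 13740 genes were. Among members with only whole values 15 of 16 were called higher. One member (H1-4) was called lower with no filter, and 0 to 1 without a replicate. The 7-day median (3.29) was 3.64 with total counts, 2.00 with no filter, 4.60 with a mean of at least 1 CPM, 2.96 with the replicate block and 2.97 to 3.74 without a replicate (highest without untreated replicate 3). The 7-day summed ratio was 12.8 with total counts, 17.0 over whole-value members, 16.8 without H2BC12 and 13.6 without the 3 members of highest mean, a choice made after the data were seen. At 28 days, 4 of 16 whole-value members were called higher, a share near the 26.0% of all tested genes. The 28-day median (0.32) was 0.49 with total counts, 0.44 with the upper quartile, 0.013 with no filter, 1.23 with a mean of at least 1 CPM, 0.92 with only the compared groups and 0.22 to 0.62 without a replicate (without untreated replicates 2 and 3). The 28-day summed ratio was 2.64 over whole-value members, 2.72 without H2BC12 and 2.29 without the 3 members. From 7 to 28 days, 13 of 13 members were called lower with a mean of at least 1 CPM, where 4146 of 13740 genes were. Among whole-value members 15 of 16 were called lower. The median from 7 to 28 days was -2.13 with no filter, -2.25 with a mean of at least 1 CPM and -2.89 to -2.50 without a replicate. In KO2 the median was 0.085 to 0.50 without a replicate, and the summed ratio 1.11 with total counts, 1.11 without H2BC12 and 1.20 without the 3 members. NPAT at 7 days was 0.28 with total counts, 0.21 with the upper quartile, 0.069 with a mean of at least 1 CPM and -0.32 to 0.13 without a replicate. H2BC12 at 28 days was 0.036 with total counts, and TDP1 -0.0100 to 0.085 without a replicate. H3-3A from 7 to 28 days was -0.15 with total counts, -0.14 with the upper quartile, -0.053 with a mean of at least 1 CPM and -0.095 to 0.12 without a replicate. The cause of these moves was not tested.

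Deviations of same-numbered samples correlated at 0.246, 0.0977 and 0.107 between DTC and untreated replicates. Over all comparisons, same-numbered samples gave -0.179 to 0.555 and differently numbered ones -0.489 to 0.458. These values do not settle whether the numbers pair the samples, and the main fit did not pair them. With the replicate block, 24, 7 and 0 members were called higher at 7 days, at 28 days and in KO2, and 24 lower from 7 to 28 days. Of 17115 genes, 5876, 4537 and 586 were called higher in the same order, and 4636 lower from 7 to 28 days. The call for H2BC18 at 7 days was lost without untreated replicate 2 or 3 or DTC replicate 2 (adjusted p = 0.0603 to 0.0877), and that for H2AC17 from 7 to 28 days in 4 such fits (adjusted p = 0.0571 to 0.0826). Fold changes at 7 days rose to 3.50 (H2BC6) and 4.99 (H2BC8) without untreated replicate 3. H2BC18, H2AC17, H2BC6 and H2BC8 had all passed the filter only through the DTC libraries. Members under 1 CPM rest on few reads.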
